A study of Mus musculus with 6 samples.

Results

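The genes described here are 10 members of the transforming growth factor-β (TGF-β) system, chosen by name from the 46078 genes of the count tables. They are the ligands *Tgfb1*, *Tgfb2*, and *Tgfb3*, the receptors *Tgfbr1*, *Tgfbr2*, and *Tgfbr3*, the latent TGF-β binding proteins *Ltbp1*, *Ltbp2*, and *Ltbp4*, and *Tgfbi*, which encodes a matrix protein named for its induction by TGF-β. Each was found in the tables, and each was among the 15554 genes that passed the filter on low counts. Bulk RNA-Seq libraries came from 3 infarcts and 3 contralateral cortices of male wild-type C57BL/6J mice, collected at 7 weeks after stroke and recorded with an age of 3 months. Stroke was induced by occlusion of the distal middle cerebral artery with hypoxia, and both regions were dissected by eye. Both therefore came from brains that had undergone stroke, and tissue of unoperated mice was not analyzed here. The records give no genotype other than wild type and do not state which infarct and which contralateral cortex shared a mouse, or that each library is a separate mouse, so *p* values describe the spread between these samples.

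TGF-β ligands are secreted in a latent form, in which the mature cytokine is held by the propeptide from which it was cleaved, and the propeptide is in turn tethered to the extracellular matrix by latent TGF-β binding proteins or to the cell surface by other anchors. Once released by integrins or proteases, the ligand brings together a type II and a type I receptor kinase, and the type I receptor phosphorylates SMAD transcription factors. In injured brain, the pathway is known for its part in microglial and macrophage regulation, glial scarring, and the deposition of fibrotic matrix.

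Infarct libraries held 12146959 to 13427057 counts on genes, and contralateral libraries held 11943570 to 19933962. Log2 expression correlated at 0.957 to 0.973 between infarcts and at 0.985 to 0.988 between contralateral cortices. The tissue labels were compared with cell type markers, summed as CPM, the count in a library scaled to a common library size with TMM. Neuronal markers summed to 465, 662, and 1250 CPM in infarcts 1, 2, and 3 and to between 7209 and 8299 CPM in contralateral cortices, with 8 of 9 downregulated. Macrophage markers summed to 8977, 7736, and 5429 CPM in the infarcts and to between 41.9 and 55 CPM in contralateral cortices, with 6 of 6 upregulated. Fibroblast markers summed to 5786, 5257, and 4667 CPM in the infarcts and to between 133 and 169 CPM in contralateral cortices, with 5 of 5 upregulated. Microglial markers summed to between 790 and 826 CPM against 247 to 291 CPM, with 3 of 5 upregulated, whereas *P2ry12* and *Sall1* did not meet the call. T-cell markers summed to 104, 35.3, and 26.8 CPM in the infarcts and to at most 3.32 CPM in contralateral cortices. Infarct 3 thus held the most neuronal and the least macrophage signal, and infarct 1 the reverse. In bulk tissue, a change in the number of cells of a type cannot be told apart from a change of RNA per cell, and the part of these cell types in each result below was not tested.

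Of the 10 genes, 9 were upregulated in infarcts, when a call required both a fold change over 2 and an adjusted *p* under 0.05 (edgeR quasi-likelihood test, Benjamini-Hochberg adjustment over all 15554 genes). Over all tested genes, 25.7% were upregulated and 20.9% were downregulated by this rule. The remaining gene, *Ltbp4*, passed the adjusted *p* but not the fold threshold. By the adjusted *p* alone, all 10 genes were higher in infarcts, as were 34.2% of the tested genes, whereas 30.8% were lower. All 10 genes had their lowest infarct library above their highest contralateral library, which was so for 37.6% of the tested genes, and 34.7% were separated in the opposite direction. The median log2 fold change was 2.45 over the 10 genes and 0.03 over all tested genes. The changes among the 10 genes ranged from 1.89-fold for *Ltbp4* to 200.2-fold for *Ltbp2*.

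**Figure D1:**
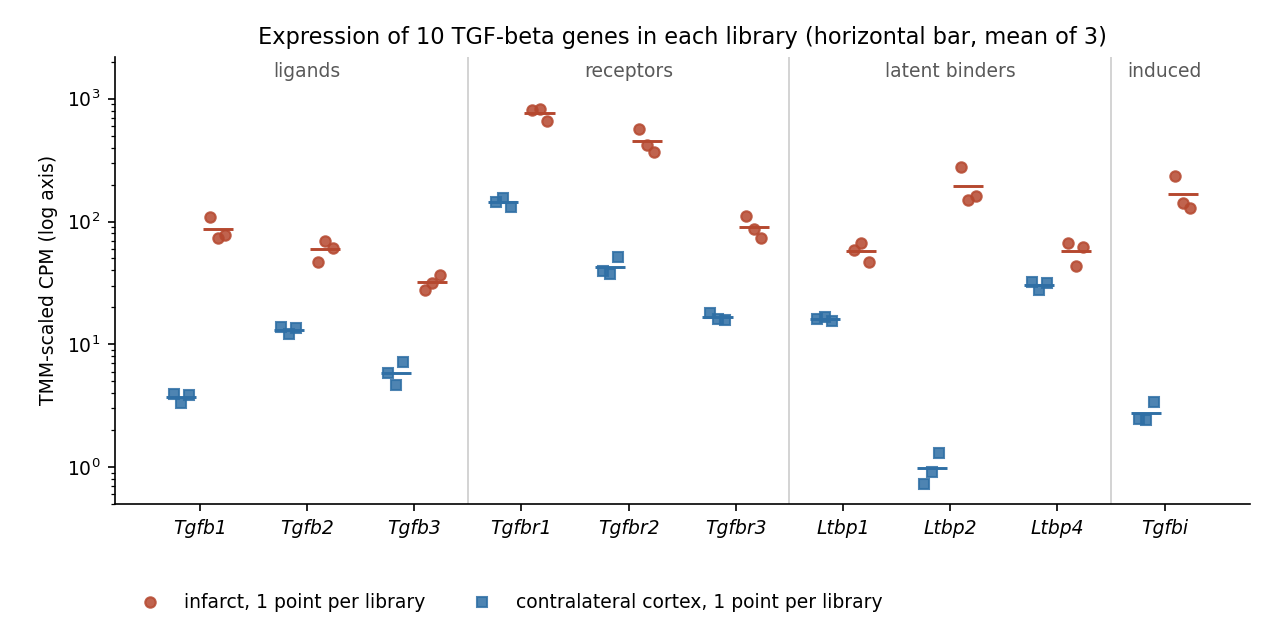
TMM-scaled CPM on a log axis for the 10 genes, with 1 point for each library (circles, 3 infarcts; squares, 3 contralateral cortices) and a horizontal bar at the mean. Every infarct point lies above every contralateral point of the same gene, with the widest gap for *Ltbp2* (means of 196 and 0.978) and the narrowest for *Ltbp4* (means of 57.5 and 30.4).

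All 3 ligands were upregulated, *Tgfb1* by the most. *Tgfb1* (ENSMUSG00000002603, GRCm38 chr7:25687002-25705077, plus strand), the isoform most closely tied to immune regulation and fibrosis, was measured at 108, 73.9, and 78.2 CPM in infarcts 1, 2, and 3 and at 3.92, 3.32, and 3.88 CPM in contralateral cortices 1, 2, and 3. Infarct 1 was the highest, and the regions were far from overlapping, since each contralateral library held 42 to 75 counts and each infarct library 1006 to 1361. The mean was 86.8 ± 18.8 CPM (SD, n = 3) in infarcts and 3.71 ± 0.333 CPM (SD, n = 3) in contralateral cortices, a 23.4-fold difference. On the log2 scale, *Tgfb1* was upregulated by 4.55 (SE 0.20, 95% interval 4.11 to 4.99, adjusted *p* = 2.49e-07), a change larger than that of 95.3% of tested genes.

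*Tgfb2* (ENSMUSG00000039239, chr1:186622792-186705989, minus strand), which is prominent in the developing nervous system and heart, was measured at 46.9, 69.8, and 60.9 CPM in infarcts and at 13.9, 12, and 13.6 CPM in contralateral cortices. Here infarct 1 was the lowest of the 3 infarcts, and the regions did not overlap. *Tgfb2* was upregulated 4.50-fold (log2 fold change 2.17, SE 0.18, 95% interval 1.76 to 2.58, adjusted *p* = 7.20e-06). *Tgfb3* (ENSMUSG00000021253, chr12:86056745-86079041, minus strand), required for palate and lung development, was measured at 27.5, 31.6, and 37.0 CPM in infarcts and at 5.80, 4.62, and 7.11 CPM in contralateral cortices. Infarct 1 was again the lowest infarct, and contralateral cortex 3 was the highest of its region without reaching the infarcts. *Tgfb3* was upregulated 5.48-fold (log2 fold change 2.46, SE 0.21, 95% interval 2.0 to 2.93, adjusted *p* = 7.33e-06). Genes on the opposite strand cover 12.4% of the exon bases of *Tgfb3* and 2.14% of those of *Tgfb2*. The strand setting of the counting is not given in the sources used here, so reads of those genes may be included.

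Ratios between ligands within a library do not depend on scaling between libraries. Per kilobase of annotated exon, the ratio of *Tgfb1* to *Tgfb2* was 2.65, 1.21, and 1.47 in infarcts and 0.324, 0.317, and 0.328 in contralateral cortices. *Tgfb2* was thus the more abundant of the pair in each contralateral cortex and *Tgfb1* in each infarct, and this held with every gene length tried. The change in ratio does not depend on length and was 5.21-fold (log2 difference 2.38). The ratio of *Tgfb1* to *Tgfb3* changed 4.19-fold (log2 difference 2.07), again without overlap. For both ratios the 2-sided exact permutation *p* was 0.1, the smallest that 3 against 3 libraries can give, and 0.129 after adjustment over the 9 ratios tested. The ratio of *Tgfb2* to *Tgfb3* overlapped between regions (log2 difference -0.31, exact permutation *p* = 0.2, adjusted *p* = 0.225).

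As a share of the summed per-kilobase counts of the 3 ligands, *Tgfb1* took 57.0%, 40.6%, and 42.0% in infarcts and 15.9%, 16.0%, and 14.8% in contralateral cortices. *Tgfb2* took 27.8 ± 6.01% (SD, n = 3) in infarcts and 48.2 ± 2.95% in contralateral cortices, and *Tgfb3* took 25.7 ± 4.03% and 36.2 ± 3.65%. The order of the shares therefore differed between regions, with *Tgfb1* last in the contralateral cortices and first in the infarcts. The annotated exons of *Tgfb1* span 5042 bases, more than its longest protein-coding transcript of 2175 bases. With each gene divided by its longest protein-coding transcript, an alternative chosen after the data were seen, *Tgfb1* took 65.0% in infarcts and 28.4% in contralateral cortices. The contralateral order then changed, with *Tgfb2* at 43.0% and *Tgfb3* at 28.6%, so *Tgfb1* and *Tgfb3* could not be ranked there.

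The ligands also differ in how they can be released. The propeptides of TGF-β1 and TGF-β3 carry an Arg-Gly-Asp motif that αv integrins bind, and TGF-β2 lacks it, as its coding sequence shows. The 27 bases around these codons are given for the 2 ligands that have them, from GRCm38 with GENCODE M21 transcripts, 5′ to 3′ along the gene, with the 3 codons in capitals.
*Tgfb1*, codons 244 to 246 of 390, exon 5 of 7, chr7:25697133-25697159: cccaaacgtCGGGGCGACctgggcacc
*Tgfb3*, codons 261 to 263 of 412, exon 5 of 7, chr12:86062156-86062182: gaccatggcCGTGGAGACctggggcgt
None of the 442 codons of *Tgfb2* start such a run.

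The promoters of *Tgfb1* and *Tgfb2* are shown because both encode ligands yet changed by different amounts. The sequences are the 250 bases before each RefSeq start (GRCm38.p6), 5′ to 3′ along the gene. Capitals mark GGGCGG (the GC box bound by Sp1), TATAAA (the TATA box), and CAGACA (a SMAD binding element), on either strand.
*Tgfb1*, chr7:25686752-25687001, plus strand: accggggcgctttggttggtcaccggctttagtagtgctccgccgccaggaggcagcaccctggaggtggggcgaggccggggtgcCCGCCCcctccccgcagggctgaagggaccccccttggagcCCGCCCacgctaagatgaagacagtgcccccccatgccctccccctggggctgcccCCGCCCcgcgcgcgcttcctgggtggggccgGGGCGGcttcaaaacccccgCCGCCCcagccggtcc
*Tgfb2*, chr1:186705990-186706239, minus strand: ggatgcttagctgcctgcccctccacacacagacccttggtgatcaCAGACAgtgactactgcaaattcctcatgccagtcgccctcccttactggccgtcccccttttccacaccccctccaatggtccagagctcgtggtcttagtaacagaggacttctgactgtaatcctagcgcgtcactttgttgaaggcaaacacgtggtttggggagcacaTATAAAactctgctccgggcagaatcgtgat
The window of *Tgfb1* held 5 GGGCGG and no TATAAA, with 75.2% G and C. The window of *Tgfb2* held no GGGCGG, 1 TATAAA, and 1 CAGACA, with 53.6% G and C, against a median of 52.4% over the 32851 promoters of the table. Among all promoters, 32.7% held GGGCGG, 12.4% held TATAAA, and 17.1% held CAGACA. The table held 12 promoters for 8 of the 10 genes, without *Tgfb3* and *Tgfbr3*. GGGCGG was in 7 of these 12, CAGACA in 3, and TATAAA in 1, whereas TGANTCA (the AP-1 site, in 6.75% of all promoters) and GTCTAGAC (the palindromic SMAD site, in 0.167%) were in none. *Ltbp4* supplied 3 of the 12, which included windows that share most of their bases. Counted by gene, GGGCGG was in 5 of the 8. These matches describe letters and do not show binding, and their relation to the changes in expression was not tested.

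All 3 receptor genes were upregulated, and *Tgfbr2* by more than the others. *Tgfbr1* (ENSMUSG00000007613, chr4:47353222-47414931, plus strand) encodes the type I receptor kinase that phosphorylates SMAD2 and SMAD3. It was measured at 806, 832, and 661 CPM in infarcts and at 143, 156, and 130 CPM in contralateral cortices, a range of 1.26-fold within infarcts, the narrowest of the 10 genes. *Tgfbr1* was upregulated 5.36-fold (log2 fold change 2.42, SE 0.16, 95% interval 2.06 to 2.78, adjusted *p* = 1.74e-06).

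*Tgfbr2* (ENSMUSG00000032440, chr9:116084293-116175360, minus strand), the type II receptor that binds ligand and activates the type I receptor, was measured at 567, 420, and 371 CPM in infarcts and at 39.2, 37.4, and 50.9 CPM in contralateral cortices. Infarct 1 was the highest and infarct 3 the lowest, and the regions did not overlap. *Tgfbr2* was upregulated 10.7-fold (log2 fold change 3.42, SE 0.20, 95% interval 2.97 to 3.86, adjusted *p* = 1.02e-06). *Tgfbr3* (ENSMUSG00000029287, chr5:107106570-107289629, minus strand) encodes betaglycan, a coreceptor that presents TGF-β2 to the signaling receptors. It was measured at 111, 86.2, and 74.1 CPM in infarcts and at 18.1, 16.1, and 15.8 CPM in contralateral cortices, with infarct 1 again the highest. *Tgfbr3* was upregulated 5.41-fold (log2 fold change 2.43, SE 0.18, 95% interval 2.04 to 2.83, adjusted *p* = 3.10e-06). Another gene on its own strand covers 4.54% of the exon bases of *Tgfbr3*.

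The ratio of *Tgfbr1* to *Tgfbr2* per kilobase was 1.78, 2.48, and 2.23 in infarcts and 4.59, 5.22, and 3.20 in contralateral cortices, so the excess of the type I over the type II transcript was smaller in every infarct. The log2 difference was -0.99 (exact permutation *p* = 0.1, adjusted *p* = 0.129). The ratio of *Tgfbr2* to *Tgfbr3* was 4.10, 3.90, and 4.01 in infarcts and 1.73, 1.85, and 2.58 in contralateral cortices, a 1.98-fold change with the same *p* values. By contrast, the ratio of *Tgfbr1* to *Tgfbr3* was 7.30, 9.67, and 8.94 in infarcts and 7.93, 9.66, and 8.26 in contralateral cortices. These values overlapped throughout (log2 difference -0.00, exact permutation *p* = 1.0). Of the summed per-kilobase receptor counts, *Tgfbr1* took 63.1 ± 3.84% in infarcts and 73.8 ± 3.76% in contralateral cortices, and *Tgfbr2* took 29.5 ± 3.22% and 17.6 ± 3.70%.

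**Figure D2:**
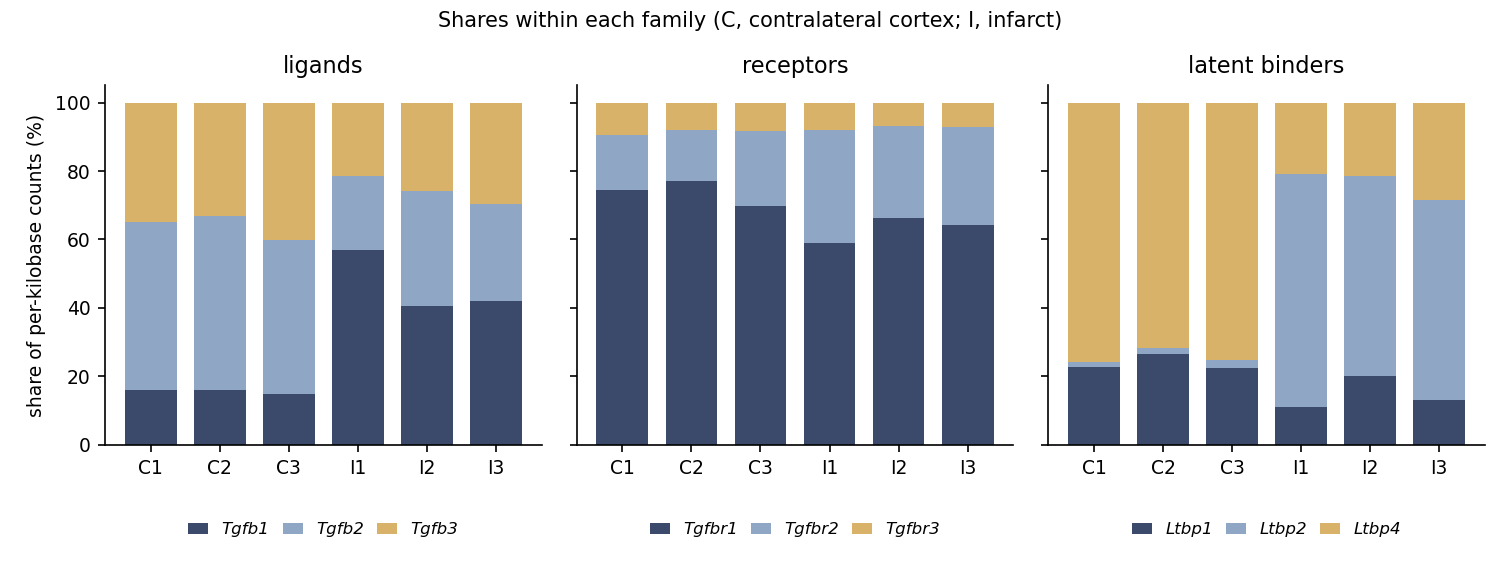
Share of each gene in the summed per-kilobase counts of its family, in percent, as stacked bars for contralateral cortices C1 to C3 and infarcts I1 to I3, with ligands, receptors, and latent binders in separate panels. *Tgfb1* takes 14.8% to 16.0% of ligand counts in contralateral cortices and 40.6% to 57.0% in infarcts. Of the counts of *Ltbp1*, *Ltbp2*, and *Ltbp4*, *Ltbp2* goes from 1.36% to 2.43% to between 58.5% and 68.0%.

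The latent binders spanned the whole range of changes among the 10 genes. *Ltbp2* (ENSMUSG00000002020, chr12:84783212-84876532, minus strand) encodes a microfibril-associated protein that, unlike its relatives, is not known to bind latent TGF-β covalently. It was measured at 276, 150, and 162 CPM in infarcts and at 0.731, 0.912, and 1.29 CPM in contralateral cortices. These values rest on 3459, 2042, and 2373 counts in infarcts and on 14 counts in each contralateral library, so the contralateral level is known only roughly. *Ltbp2* was upregulated by 7.68 on the log2 scale (SE 0.34, 95% interval 6.92 to 8.45, adjusted *p* = 3.28e-07), a larger change than that of 98.8% of tested genes. A gene on the opposite strand covers 9.34% of the exon bases of *Ltbp2*, and reads from either cannot be told apart without the strand setting.

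*Ltbp1* (ENSMUSG00000001870, chr17:75005568-75392512, plus strand), which binds latent TGF-β covalently and stores it in the matrix, was measured at 58.6, 67.4, and 46.8 CPM in infarcts and at 16.0, 16.7, and 15.5 CPM in contralateral cortices. The contralateral libraries were within 1.08-fold of each other, the tightest group of any of the 10 genes. *Ltbp1* was upregulated 3.58-fold (log2 fold change 1.84, SE 0.17, 95% interval 1.45 to 2.23, adjusted *p* = 1.39e-05). *Ltbp4* (ENSMUSG00000040488, chr7:27305136-27337692, minus strand), which binds latent TGF-β1 and takes part in elastic fiber assembly, was measured at 66.8, 43.4, and 62.3 CPM in infarcts and at 32.1, 27.5, and 31.7 CPM in contralateral cortices. The lowest infarct, infarct 2, still lay above every contralateral cortex. The log2 fold change of *Ltbp4* was 0.92 (SE 0.19, 95% interval 0.50 to 1.34, adjusted *p* = 0.00186), an interval that spans the fold threshold of 2. Without infarct 2 the value was 1.11 and the gene was called, as it also was at 1.12 with library totals in place of TMM, a scaling that raised the median of all tested genes by 0.203.

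Within the latent binders the ratio of *Ltbp2* to *Ltbp4* per kilobase was 3.26, 2.73, and 2.05 in infarcts and 0.0180, 0.0262, and 0.0322 in contralateral cortices, a 106-fold change. *Ltbp1* relative to *Ltbp2* was 0.163, 0.344, and 0.221 in infarcts and 16.7, 14.1, and 9.19 in contralateral cortices, and *Ltbp1* relative to *Ltbp4* changed 1.90-fold. In none of these 3 ratios did the regions overlap, and each had an exact permutation *p* of 0.1 (adjusted *p* = 0.129). *Ltbp4* took 74.3 ± 2.23% (SD, n = 3) of the per-kilobase counts of the 3 latent binders in contralateral cortices and 23.6 ± 4.26% in infarcts. *Ltbp2* took 1.89 ± 0.532% and 61.7 ± 5.50%, and *Ltbp1* took 23.8 ± 2.24% and 14.7 ± 4.77%. Among these 3 genes, the one that took most of the counts was therefore *Ltbp4* in each contralateral cortex and *Ltbp2* in each infarct. The shares leave out the family member *Ltbp3*, which averaged 10.7 CPM per kilobase in infarcts and 1.64 in contralateral cortices.

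*Tgfbi* (ENSMUSG00000035493, chr13:56609523-56639562, plus strand) encodes a secreted matrix protein that binds collagens and integrins. It was measured at 235, 142, and 128 CPM in infarcts and at 2.46, 2.41, and 3.41 CPM in contralateral cortices, where 37 to 47 counts were obtained. Infarct 1 stood highest and infarct 3 lowest, as for *Tgfbr2*, and infarcts 2 and 3 were close to each other. *Tgfbi* was upregulated 61.0-fold (log2 fold change 5.95, SE 0.27, 95% interval 5.34 to 6.56, adjusted *p* = 4.57e-07). Its coding sequence holds 1 in-frame run of Arg-Gly-Asp codons near its 3′ end, shown here in capitals beside those of the ligands.
*Tgfbi*, codons 642 to 644 of 683, exon 15 of 17, chr13:56637146-56637172, plus strand: ccacaagaaCGAGGAGATgagctggca

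**Figure D3:**
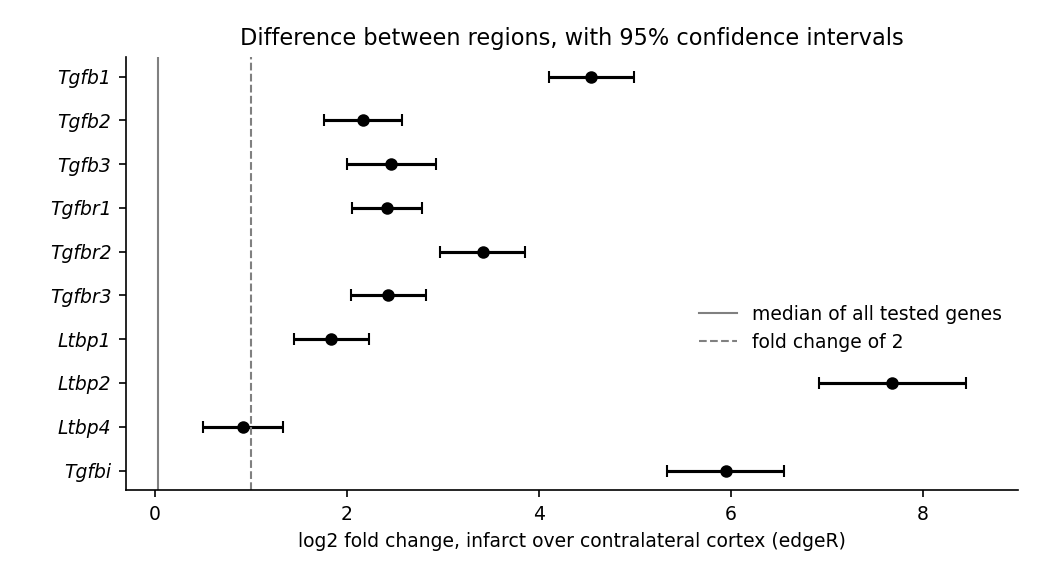
Log2 fold change of infarct over contralateral cortex for the 10 genes (points) with 95% confidence intervals (bars) from edgeR. The solid line marks the median of all tested genes at 0.03 and the dashed line a fold change of 2. The interval of *Ltbp4* (0.50 to 1.34) spans the dashed line, and the intervals of the other 9 genes lie above it, up to 6.92 to 8.45 for *Ltbp2*.

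Levels can be compared between genes only per length. The orders below use annotated exon lengths, and the ranks of all 10 genes with other lengths were not tested. In contralateral cortices, *Tgfbr1* was the most abundant of the 10 genes at 21.9 ± 1.96 CPM per kilobase of exon (SD, n = 3). *Tgfbr2* at 5.19 ± 0.900 and *Ltbp4* at 4.71 ± 0.396 followed and overlapped each other. Below them came *Tgfbr3* at 2.55, then *Tgfb2* at 2.27, *Tgfb3* at 1.73, and *Ltbp1* at 1.45 to 1.57 over its libraries, of which each of the last 3 overlapped its neighbor. *Tgfb1* and *Tgfbi*, at 0.735 and 0.732 CPM per kilobase, could not be ranked against each other, and *Ltbp2* was last at 0.120.

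In infarcts, *Tgfbr1* was again first at 117 ± 14.1 CPM per kilobase and did not overlap any other of the 10 genes. *Tgfbr2* at 55.3 ± 12.4 and *Tgfbi* at 44.7 ± 15.5 came next and overlapped. From *Ltbp2* at 23.9, through *Tgfb1* at 17.2, *Tgfbr3* at 13.8, *Tgfb2* at 10.2, and *Tgfb3* at 9.47, down to *Ltbp4* at 8.90, the range of each gene overlapped that of the next. These ranges over libraries alone do not order neighbors in this run, and the order within each library was not tested. With annotated exon lengths, *Ltbp1* was last at 5.39 ± 0.970 CPM per kilobase and lay below the rest without overlap. That place depends on length, since the exons of *Ltbp1* span 10691 bases and its longest protein-coding transcript 6671. With each gene divided by its longest protein-coding transcript, *Ltbp1* lay above *Ltbp4* in infarct 2 (25.07% against 19.99% of latent binder counts). In infarcts 1 and 3 *Ltbp1* stayed below *Ltbp4*. *Tgfbr1* thus headed the order in both regions. By mean, *Ltbp2* was last in contralateral cortices and at place 4 in infarcts. *Tgfbi*, which could not be ranked against *Tgfb1* in contralateral cortices, was by mean at place 3 in infarcts.

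The order of the infarcts was not the same for every gene. *Tgfb1*, *Tgfbr2*, *Tgfbr3*, *Ltbp2*, *Ltbp4*, and *Tgfbi* were highest in infarct 1, *Tgfb2*, *Tgfbr1*, and *Ltbp1* in infarct 2, and *Tgfb3* in infarct 3. The coefficient of variation over infarcts was 35.4% for *Ltbp2* and 34.6% for *Tgfbi*, and between 12% and 22.5% for the other 8 genes. Summed over the 10 genes, infarcts 1, 2, and 3 held 2303, 1917, and 1682 CPM, the same order as the marker sums of macrophages, fibroblasts, endothelium, mural cells, T cells, and microglia. The marker sums of neurons, astrocytes, and oligodendrocytes had the reverse order. Contralateral cortices summed to between 273 and 277 CPM. *Tgfbr1* (806, 832, and 661 CPM) and *Tgfbr2* (567, 420, and 371 CPM) made up most of the infarct sums. Among the 10 genes, only *Tgfbr2*, *Tgfbr3*, and *Tgfbi* fell from infarct 1 to 2 to 3, and *Tgfb3* rose. With 3 infarcts these orders have no test. Leaving out any library moved the fold change of a gene by at most 1.23-fold, for *Ltbp2* and *Tgfbi*.

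The rest of the pathway was read from lists of other genes. Each count below stands beside the shares over all tested genes, 25.7% upregulated and 20.9% downregulated. Among 7 other genes for anchors of latent TGF-β and their matrix partners, 6 were upregulated, with a median log2 fold change of 3.32. *Ltbp3*, the remaining family member, was measured at 91.1, 114, and 84.8 CPM in infarcts and at 15.2, 15.0, and 14.3 CPM in contralateral cortices (log2 fold change 2.70, SE 0.16, adjusted *p* = 8.53e-07). The cell surface anchors were also upregulated, *Lrrc32* (GARP, found on regulatory T cells and platelets) by 2.25 and *Nrros* (the microglial and macrophage anchor of latent TGF-β1) by 3.32 on the log2 scale. *Nrros* was measured at 81.3, 71.0, and 52.0 CPM in infarcts and at 6.37, 6.71, and 7.38 CPM in contralateral cortices. The matrix partners *Emilin1* (5.37), which restrains TGF-β1 processing, *Fbn1* (4.35), which forms the microfibrils that hold latent complexes, and *Tgm2* (3.73), a cross-linking enzyme, had the largest log2 fold changes of this list. *Fbn2* did not pass the test (log2 fold change -0.28, adjusted *p* = 0.617).

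Of 12 genes that release or activate the ligand, 11 passed the filter, and 9 were upregulated, with a median log2 fold change of 2.94. The 2 that did not pass the test were *Itgav*, the αv integrin subunit, and *Itgb8*, which encodes a partner of αv in the activation of TGF-β. *Itgav* was measured at 453, 511, and 382 CPM in infarcts and at 387, 495, and 452 CPM in contralateral cortices, which overlapped (log2 fold change 0.01, 95% interval -0.37 to 0.40, adjusted *p* = 0.945). *Itgb8* was measured at 294, 322, and 352 CPM in infarcts and at 368, 378, and 355 CPM in contralateral cortices (log2 fold change -0.19, 95% interval -0.51 to 0.14, adjusted *p* = 0.282). Both intervals lie within a fold change of 2 in either direction. *Itgb6*, an epithelial partner of αv, held 0 counts in each library except 1 count in contralateral cortex 2. The other integrin subunits of the list, *Itgb1* (2.94), *Itgb3* (2.29), and *Itgb5* (3.21), were each upregulated, with log2 fold changes in parentheses. Thrombospondin 1 (*Thbs1*), a matrix protein that activates latent TGF-β, was also upregulated (log2 fold change 3.82, SE 0.21, adjusted *p* = 8.56e-07). *Thbs1* was measured at 236, 173, and 147 CPM in infarcts and at 16.0, 10.7, and 12.5 CPM in contralateral cortices. The metalloproteinases *Mmp2* (5.98), *Mmp9* (4.63), and *Mmp14* (4.63) had the largest log2 fold changes among the activators.

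Of 10 coreceptors and antagonists, 9 passed the filter, 8 were upregulated, and 1 was downregulated, with a median log2 fold change of 2.46. The largest log2 fold changes were those of *Dcn* (6.43) and *Bgn* (4.87), proteoglycans that bind TGF-β, and of *Cd109* (4.85), a membrane protein that dampens receptor signaling. *Dcn* is also on the fibroblast marker list. The endothelial receptors *Eng* and *Acvrl1* were upregulated by 1.37 (SE 0.21, adjusted *p* = 2.89e-04) and 2.01 (SE 0.16, adjusted *p* = 4.88e-06) on the log2 scale. Endothelial markers summed to between 295 and 434 CPM in infarcts and to between 194 and 211 CPM in contralateral cortices, with 3 of 5 upregulated. *Bambi*, a receptor without a kinase domain, was upregulated by 1.16 (adjusted *p* = 0.00600), a call that was lost at 0.95 without infarct 1 and at 0.97 without contralateral cortex 1. *Fst*, which encodes the activin antagonist follistatin, was measured at 6.37, 3.30, and 3.55 CPM in infarcts and at 9.82, 13.4, and 6.83 CPM in contralateral cortices (log2 fold change -1.19, adjusted *p* = 0.00995), and its call was lost at -0.94 without contralateral cortex 2.

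Of 15 genes of the intracellular SMAD machinery, 4 were upregulated, against 25.7% of all tested genes. A further 1 was downregulated, against 20.9%, and 10 did not meet the call. By the adjusted *p* alone, 8 were higher in infarcts, as were 34.2% of all tested genes. The median log2 fold change of the list was 0.44, and its difference from the ligands and receptors was not tested. The receptor-regulated *Smad2* was measured at 40.9, 32.8, and 31.3 CPM in infarcts and at 33.7, 37.6, and 38.9 CPM in contralateral cortices, which overlapped (log2 fold change -0.07, 95% interval -0.44 to 0.29, adjusted *p* = 0.718). *Smad3* was measured at 141, 157, and 125 CPM in infarcts and at 168, 163, and 174 CPM in contralateral cortices (log2 fold change -0.26, 95% interval -0.57 to 0.06, adjusted *p* = 0.134). Both intervals exclude a fold change of 2 in either direction. The 4 upregulated genes were the transcriptional corepressor *Tgif1* (4.95), the inhibitory *Smad6* (2.74), *Pmepa1* (1.64), which encodes a SMAD-sequestering membrane protein, and *Smad5* (1.24), a mediator of bone morphogenetic protein signals. *Tgif1* was measured at 25.2, 31.3, and 26.3 CPM in infarcts and at 1.51, 0.651, and 0.277 CPM in contralateral cortices. Without contralateral cortex 1, the log2 fold change of *Tgif1* was 5.78. The gene for the endosomal adaptor SARA, *Zfyve9*, which presents SMAD2 and SMAD3 to the receptor, was measured at 46.8, 52.2, and 61.6 CPM in infarcts and at 147, 159, and 176 CPM in contralateral cortices. It was downregulated (log2 fold change -1.58, SE 0.15, adjusted *p* = 1.58e-05).

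Of 19 genes known as TGF-β targets, 15 were upregulated, with a median log2 fold change of 3.01, or 2.32 with a gene that held at most 3 counts in each contralateral cortex set to its lower bound. The genes that did not meet the call included the feedback targets *Smad7* and *Skil*, whereas *Pmepa1*, also on this list, was upregulated (log2 fold change 1.64). The inhibitory *Smad7* was measured at 15.6, 23.1, and 21.4 CPM in infarcts and at 14.1, 13.1, and 16.0 CPM in contralateral cortices, which overlapped (log2 fold change 0.48, 95% interval 0.04 to 0.92, adjusted *p* = 0.0538). *Skil*, a SMAD corepressor that TGF-β induces, was measured at 257, 276, and 242 CPM in infarcts and at 185, 203, and 185 CPM in contralateral cortices (log2 fold change 0.44, adjusted *p* = 0.0177), a difference below the fold threshold. *Ccn2*, which encodes the matricellular connective tissue growth factor, had a log2 fold change of 0.98 (adjusted *p* = 4.60e-04), and it was called at 1.01 without infarct 2, at 1.02 without infarct 3, and at 1.08 without contralateral cortex 1. *Junb*, the last of the 4, also had a log2 fold change of 0.98 (adjusted *p* = 0.00140).

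In contrast, the fibrillar collagen genes had the largest changes of the targets, with log2 fold changes of 7.35 for *Col3a1*, 6.73 for *Col1a1*, and 6.45 for *Col1a2*. *Col1a1* was measured at 1191, 1236, and 1258 CPM in infarcts and at 11, 7.55, and 16.4 CPM in contralateral cortices. *Col1a1* and *Col1a2* are also on the fibroblast marker list, whose summed level moved in the same direction, so the targets and that cell type share genes here.

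**Figure D4:**
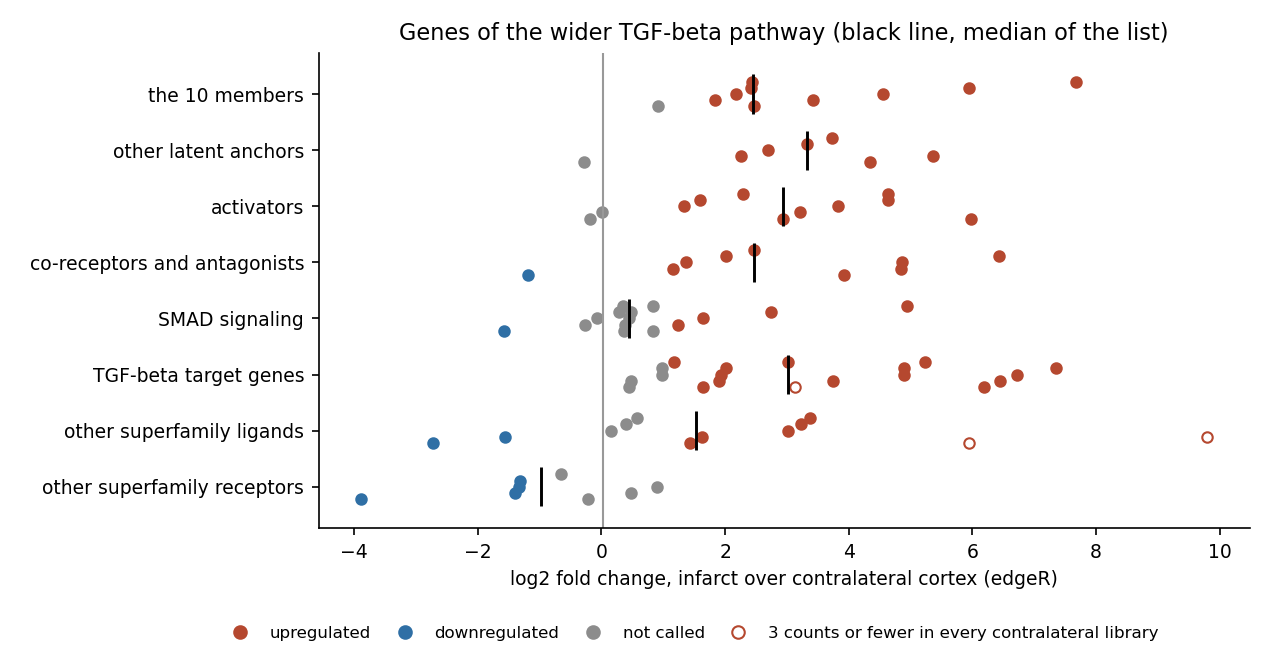
Log2 fold change of infarct over contralateral cortex for each gene of the pathway lists that passed the filter, 1 point per gene, colored by call, with a black line at the median of each list. Open circles are genes with 3 counts or fewer in each contralateral library, whose fitted value is not a measured fold. The medians lie at 2.45 for the 10 genes, 0.44 for SMAD signaling, and -0.99 for the list of other superfamily receptors, which leaves out *Acvrl1*.

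Ligands and receptors of the wider superfamily were set beside the 10 genes for comparison. Of 14 other ligands found in the tables, 12 passed the filter, 7 were upregulated, and 2 were downregulated. *Gdf10* was measured at 39.6, 44.0, and 35.8 CPM in infarcts and at 4.02, 3.84, and 3.51 CPM in contralateral cortices (log2 fold change 3.38, SE 0.17, adjusted *p* = 4.16e-07). *Gdf3* counts were 95, 118, and 104 in infarcts and 0 in each contralateral cortex, at least 37.1-fold higher when each contralateral library is set to 3 counts. *Gdf15*, a cytokine of cell stress, had counts of 22, 20, and 36 in infarcts against 0, 1, and 0 in contralateral cortices. The downregulated ligands were *Bmp3* and the activin subunit *Inhba*. *Bmp3* was measured at 3.82, 16.9, and 8.80 CPM in infarcts and at 83.8, 54.5, and 56.0 CPM in contralateral cortices (log2 fold change -2.72, SE 0.47, adjusted *p* = 0.00221), and its value was -3.33 without infarct 2. The log2 fold change of *Inhba* was -1.56 (SE 0.55, adjusted *p* = 0.0282). *Inhba* counts were low, at 3, 8, and 18 in infarcts against 47, 21, and 26 in contralateral cortices, and its call was lost at -1.15 without infarct 1, at -1.43 without infarct 2, at -1.42 without contralateral cortex 1, and at -1.46 without contralateral cortex 3, whereas it was -2.27 without infarct 3.

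The list of other superfamily receptors held 8 genes, of which 4 were downregulated and 4 did not meet the call. Its median log2 fold change was -0.99, whereas *Tgfbr1*, *Tgfbr2*, and *Tgfbr3* were each upregulated. The list leaves out the receptors *Acvrl1* and *Eng*, described above, which were upregulated (log2 fold changes 2.01 and 1.37). By the adjusted *p* alone, 2 of the 8 were higher and 5 lower in infarcts, against 34.2% and 30.8% of all tested genes. The 4 downregulated genes encode activin or nodal receptors. *Acvr1c*, which encodes the type I receptor ALK7, was measured at 3.90, 10.2, and 8.26 CPM in infarcts and at 90.8, 133, and 111 CPM in contralateral cortices (log2 fold change -3.89, SE 0.31, adjusted *p* = 1.64e-05). Every infarct lay far below every contralateral cortex, and infarct 1 was the lowest. *Acvr2b* (-1.40), *Acvr2a* (-1.33), and *Acvr1b* (-1.32) were downregulated by similar amounts. *Acvr2a* was measured at 37.8, 47.0, and 51.9 CPM in infarcts and at 127, 116, and 102 CPM in contralateral cortices, without overlap. The receptors that did not meet the call were *Bmpr1a* (0.90), *Acvr1* (0.48), *Bmpr1b* (-0.22), and *Bmpr2* (-0.65). Counted without repeats, the pathway lists held 78 tested genes, of which 48 were upregulated and 8 were downregulated. Over all tested genes these shares were 25.7% and 20.9%.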

How the data were processed

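The authors used a stranded mRNA kit and, per the labels, demultiplexed reads with bcl2fastq 2.19, trimmed them with Trimmomatic 0.32, aligned them to GRCm38 with STAR 2.5.2b, and counted them with HTSeq. The annotation and strand setting of the counting are not given in the sources used here. The deposited values are raw counts per Ensembl gene. The 5 entries naming no gene (26.6% to 34.3% of each library's tally) were left out. Of 46078 identifiers, 45143 matched GENCODE M21.

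Differential expression was computed with edgeR 4.0.16 under R 4.3.3 (filterByExpr, TMM scaling, robust quasi-likelihood fit with region as the only term, Benjamini-Hochberg adjustment over the 15554 tested genes). A call required a fold change over 2 and an adjusted *p* under 0.05. The biological coefficient of variation was 0.22. DESeq2 1.42.0 and limma 3.58.1 (voom) were alternatives, with other scalings, filters, and thresholds, glmTreat, a replicate block, and each library left out in turn. The procedure was tested on simulated data. Exon lengths are unions of GENCODE M21 exons. Ratios were tested by exact permutation with SciPy 1.17.1.

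The 10 genes and the lists were chosen with earlier results of these data known. Named genes are the 10 members, the 3 called genes of each list with the largest change in each direction whose higher region averaged at least 10 counts, and 17 genes named whatever their values, of which 1 is not reported here. *Fbn2*, *Smad5*, *Junb*, *Acvr1b*, *Acvr1*, *Bmpr1a*, *Bmpr1b*, and *Bmpr2* fall outside this rule and were added to complete counts of 5 or fewer. *Itgb1*, *Itgb3*, and *Itgb5* also fall outside it and were added to complete the integrin subunits of the activators. All of these, and the marker genes in the text, were named after their values were seen. Genes on the opposite strand cover 20.1% of the exon bases of *Fbn1*, 21.8% of *Tgm2*, 23.2% of *Ccn2*, and 10.9% of *Zfyve9*. *Gdf1* was not matched. The marker lists of astrocytes, oligodendrocytes, mural cells, choroid plexus, and skeletal muscle are reported with the other observations. Counts of 3 or fewer in each library of a region were set to a floor of 3, which covers counting error only.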

Additional observations from a re-analysis of the deposited data

How the results depend on the processing

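The calls of the 10 genes kept their direction in each of 160 alternative values, and 157 stayed on the same side of the threshold. The 3 others were all *Ltbp4*, which became called with library totals (log2 fold change 1.12), with no fold threshold (0.92), and without infarct 2 (1.11). The settings with no fold threshold and with glmTreat keep the log2 fold changes of the main fit, so only their calls could differ. The count of upregulated members was 9 or 10 throughout. Over all genes, 3999 were upregulated and 3256 downregulated, against 4434 and 3550 with DESeq2, 4528 and 2766 with library totals, and 3192 and 2329 with glmTreat. Library totals raised the median log2 fold change of all tested genes by 0.203. For 40 other named genes, 577 of 594 values kept their call, 12 lost it, 5 gained it, and 0 reversed. Beyond the calls named above, glmTreat ended those of *Bambi*, *Fst*, and *Inhba* (adjusted *p* = 0.274, 0.269, and 0.16), and library totals ended those of *Fst* (-1.0) and *Inhba* (-1.35) and made that of *Ccn2* (1.17), as did a minimum of 10 counts in each library (1.01). The cause was not tested. The log2 change in the ratio of *Tgfbr1* to *Tgfbr3*, -0.00 over all libraries, ranged from -0.09 to 0.12 when each library was left out in turn, turning to 0.12 without infarct 1 and to 0.08 without contralateral cortex 2.

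Libraries share numbers across regions, but same-numbered libraries did not deviate together (correlations of -0.19, 0.10, and 0.001), so the numbers were not taken to pair the samples. With the replicate block, 9 members were upregulated, and 3945 genes were upregulated and 3222 downregulated. Contralateral depth limits *Ltbp2* (14 counts in each library), and 3 libraries per region cannot give an exact permutation *p* under 0.1.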

Other observations

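Other cell types of the tissue moved with the regions as follows. Astrocyte markers summed to between 4208 and 6257 CPM in infarcts and to between 13450 and 14360 CPM in contralateral cortices, with *Aqp4* upregulated and *Slc1a2* downregulated among 6. Oligodendrocyte markers summed to between 3540 and 5834 CPM in infarcts and to between 1895 and 2303 CPM in contralateral cortices, with 2 of 5 upregulated. By the adjusted *p* alone, all 5 oligodendrocyte markers were higher in infarcts, as were 34.2% of all tested genes. Mural cell markers summed to between 459 and 670 CPM against 201 to 242 CPM, with 4 of 5 upregulated. Choroid plexus markers summed to 14.8 to 23.7 CPM in infarcts and 6.32 to 7.16 CPM in contralateral cortices, without overlap, and of the 3 that passed the filter *Folr1* and *Clic6* were upregulated and *Kl* did not meet the call, whereas *Ttr*, the defining transcript, held 0 to 3 counts in each library. Of the 4 skeletal muscle markers, *Acta1* alone passed the filter, at 0.239 to 0.734 CPM in infarcts and 9.05 to 11.2 CPM in contralateral cortices, where it made up nearly all of the summed level. *Ckm*, *Myh4*, and *Tnnt3* held 0 to 14 counts in each library.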
